A study of Mus musculus with 6 samples.

Results

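The 10 genes described here, Myof, Nt5e, Ccdc80, Asap1, Dock5, Arhgef17, Nuak2, Rbms3, Gadd45a and Foxf2, are targets of the coactivators YAP and TAZ. They were taken by gene symbol, and each of the 10 had 1 probe set among the 22206 tested on the arrays, so no choice between probe sets was needed. All 10 were tested without a filter on low signals. Expression was measured in whole adrenal glands of 6 female mice, 2 months old, with 1 Affymetrix whole-transcript array per animal. Mutant mice (n = 3) were homozygous for floxed Mst1 and floxed Mst2 and carried Nr5a1-Cre, a transgene active in steroid-producing cells. Control mice (n = 3) carried the same floxed alleles without Cre, so the comparison does not separate the loss of the kinases from the presence of the transgene. Whole glands also hold capsule, vessels and medulla beside the steroid-producing cells, and in such samples fewer cells of a type cannot be told apart from less RNA per cell.

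MST1 and MST2 start the Hippo kinase chain, in which they activate LATS kinases that phosphorylate YAP and TAZ and keep them out of the nucleus. When the chain is silent, YAP and TAZ enter the nucleus and bind DNA through TEAD factors, which recognise the letters GGAATG, often at enhancers far from the genes they switch on. A widely used target signature, drawn from human tumours, holds the 10 genes given here and 12 others, among them the common readouts Ccn1 and Ccn2. In the adrenal gland YAP and TAZ are known from work in mice to act in the maintenance of the cortex. The comparison of mutant with control glands asks what follows in the gland when both kinases are deleted in cortical cells.

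The log2 signal of Stk4, the gene of MST1, was 8.14, 8.36 and 8.46 in mutants 1, 2 and 3, against 8.32, 8.66 and 8.94 in controls 1, 2 and 3, and the groups overlapped. Its log2 change, mutant minus control, was -0.32 (SE 0.19, adjusted p of 0.623 by limma), and since the position of its probes within the gene is not known here, this value does not check the labels. Median log2 signals of the 6 arrays lay between 6.76 and 6.83, and arrays correlated across probe sets at 0.988 or more. The 23 background probe sets of the arrays reached from 2.53 to 7.32 log2 units, and signals inside that range are called within background below. All 9 cortex markers, such as Star and Cyp11b1, were above it in both groups, whereas 7 of 8 kidney markers were within it in both groups.

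Of the 10 genes, 4 had all 3 mutants above all 3 controls, namely Myof, Rbms3, Nt5e and Asap1. Over all probe sets, 8.00% had every mutant higher and 8.36% every mutant lower. Promoter sequences are given here for the 3 of these 4 genes found in the RefSeq-derived promoter table of build GRCm38.p6, which holds 5 of the 10 genes. Each line shows the 250 bases before an annotated start, 5′ to 3′ on the gene's strand, with motif matches in capitals. Rbms3 has 2 annotated starts, both shown.
Myof, chr19:38043578-38043827, minus strand: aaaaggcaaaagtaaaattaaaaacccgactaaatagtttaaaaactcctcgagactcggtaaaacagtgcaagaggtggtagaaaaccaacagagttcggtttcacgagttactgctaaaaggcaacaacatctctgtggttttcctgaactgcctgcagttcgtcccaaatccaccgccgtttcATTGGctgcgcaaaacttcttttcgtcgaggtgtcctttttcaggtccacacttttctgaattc
Rbms3 start 1, chr9:117252484-117252733, minus strand: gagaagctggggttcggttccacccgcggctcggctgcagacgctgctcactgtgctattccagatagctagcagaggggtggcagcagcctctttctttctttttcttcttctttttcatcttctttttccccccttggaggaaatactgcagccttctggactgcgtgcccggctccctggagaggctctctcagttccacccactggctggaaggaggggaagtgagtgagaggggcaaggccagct
Rbms3 start 2, chr9:117629914-117630163, minus strand: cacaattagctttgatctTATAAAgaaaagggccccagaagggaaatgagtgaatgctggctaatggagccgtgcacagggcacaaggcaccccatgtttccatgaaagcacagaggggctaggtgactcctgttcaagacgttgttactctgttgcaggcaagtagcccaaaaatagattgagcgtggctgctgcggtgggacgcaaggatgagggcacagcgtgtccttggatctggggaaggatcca
Nt5e, chr9:88327359-88327608, plus strand: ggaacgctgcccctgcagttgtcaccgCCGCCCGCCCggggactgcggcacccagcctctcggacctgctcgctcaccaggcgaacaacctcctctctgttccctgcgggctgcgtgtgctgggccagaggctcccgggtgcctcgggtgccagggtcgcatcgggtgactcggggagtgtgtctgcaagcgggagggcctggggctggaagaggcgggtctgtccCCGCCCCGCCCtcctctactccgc
The capitals mark matches, on either strand, to 6 motifs: the TEAD letters GGAATG, the AP-1 letters TGANTCA, the NR5A half-site AGGTCA, the CCAAT box CCAAT, the GC box GGGCGG and the TATA box TATAAA. No TEAD match lay in these 4 windows or in those of Gadd45a and Foxf2, where 12.6% of the 32851 windows in the table hold one. The same 6 windows had no AP-1 match (6.75% of all windows) and no NR5A half-site (14.0%). The absence says only that these letters are not in the 250 bases searched. Myof has 1 CCAAT box, written ATTGG, at 64 to 60 bases before its start (33.9% of all windows hold one). Nt5e has 4 GC boxes in 2 overlapping pairs, at 223 to 214 and at 24 to 14 bases before its start (32.7% of all windows hold one), and start 2 of Rbms3 has 1 TATA box at 232 to 227 bases before it (12.4%). Base composition differed among the 3 genes: the Nt5e window was 72.0% G and C with 21 CpG pairs, the Myof window 42.8% with 11, and those of Rbms3 57.2% and 52.0% with 7 and 6, against medians of 52.4% and 6 over all windows.

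**Figure D1:**
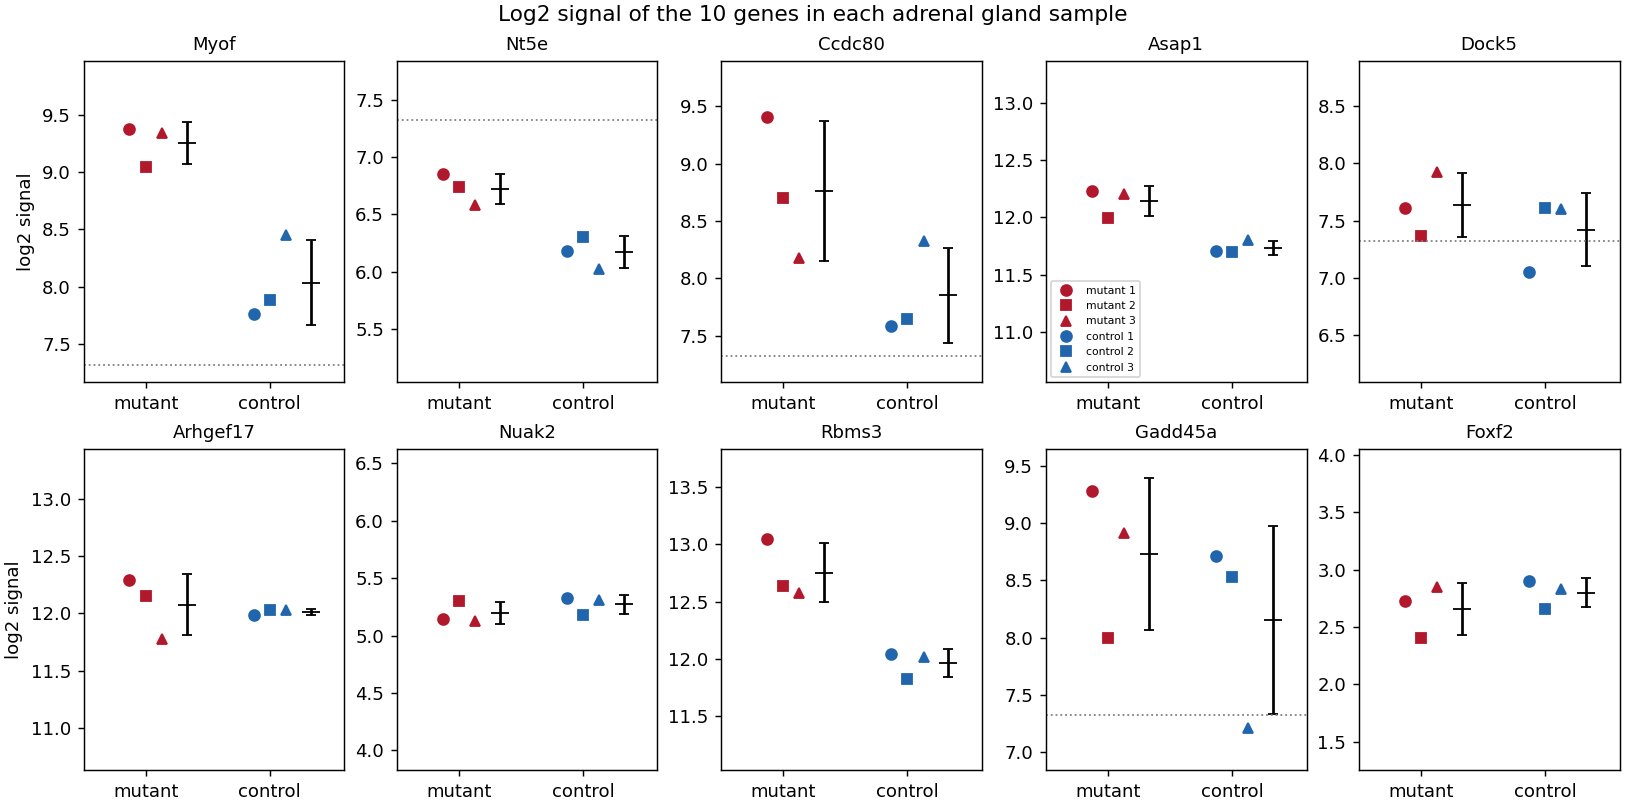
Log2 signal of each of the 10 genes in the 3 mutant (red, left) and 3 control (blue, right) glands, with group mean and SD beside the points and every panel spanning the same number of log2 units. The dotted line is the top of the background range, 7.32, drawn where it falls inside a panel. Myof, Nt5e, Asap1 and Rbms3 show all mutants above all controls, and the other 6 genes overlap.

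Myof, Nt5e and Ccdc80 act at the cell surface or outside the cell. Myof encodes myoferlin, a calcium-binding membrane protein of the ferlin family that serves membrane fusion and repair. Its log2 signal was 9.37, 9.04 and 9.34 in mutants 1, 2 and 3, against 7.76, 7.89 and 8.45 in controls 1, 2 and 3. The lowest mutant stood 0.59 log2 units above the highest control. The mean was 9.25 ± 0.18 in mutants and 8.03 ± 0.37 in controls (SD, n = 3 each), a difference of 1.22 log2 units (SE 0.21), or 2.33-fold (95% interval 1.66 to 3.26). This missed the threshold over all probe sets (adjusted p of 0.0939 by limma), and among the 22206 probe sets Myof was at place 89 by p-value.

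Nt5e encodes CD73, the surface enzyme that turns AMP outside the cell into adenosine. Its log2 signal was 6.85, 6.74 and 6.58 in mutants 1, 2 and 3, against 6.18, 6.30 and 6.02 in controls 1, 2 and 3. The groups stood 0.28 apart, with little spread inside either. All 6 signals were within background, which limits what the measured 1.47-fold difference can show. The log2 change was 0.55 (SE 0.15, 95% interval 0.20 to 0.90, adjusted p of 0.276 by limma).

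Ccdc80 encodes a secreted matrix protein made by fibroblasts and fat cells, among others. Its log2 signal was 9.40, 8.70 and 8.18 in mutants 1, 2 and 3, against 7.58, 7.65 and 8.33 in controls 1, 2 and 3. Mutant 3 lay below control 3, so the groups overlapped. Its mean difference of 0.91 log2 units (SE 0.32, 95% interval 0.17 to 1.65, adjusted p of 0.390 by limma) stood beside a spread among animals of 0.61 in mutants and 0.41 in controls (SD, n = 3 each). The fibroblast markers had a similar arrangement, with a list mean in mutant 3 (9.39) below that in control 3 (9.66) and the highest value in mutant 1 (10.2), and the part of fibroblast content in the Ccdc80 difference was not tested. With the mean of the adipocyte markers as a covariate, the Ccdc80 change was 0.61 (SE 0.19), and without mutant 1 it was 0.59 (SE 0.28).

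Asap1, Dock5, Arhgef17 and Nuak2 regulate the actin cytoskeleton. Asap1, a GTPase-activating protein for ARF proteins found at focal adhesions and podosomes, had log2 signals of 12.23, 12.00 and 12.20 in mutants 1, 2 and 3, against 11.71, 11.70 and 11.80 in controls 1, 2 and 3. All mutants were above all controls, by 0.20 at the nearest, and the animals of each group were close together. The log2 change was 0.41 (SE 0.14), a 1.33-fold difference (95% interval 1.06 to 1.67), without passing the test (adjusted p of 0.385 by limma).

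Dock5, an exchange factor that activates Rac, had log2 signals of 7.61, 7.37 and 7.93 in mutants 1, 2 and 3, against 7.05, 7.61 and 7.60 in controls 1, 2 and 3. Mutant 2 lay below 2 of the controls, control 1 was within background, and the log2 change of 0.21 (SE 0.22, 95% interval -0.28 to 0.71) did not pass (adjusted p of 0.790 by limma) and was 0.031 without control 1. Arhgef17, a guanine nucleotide exchange factor, had log2 signals of 12.29, 12.15 and 11.78 in mutants 1, 2 and 3, against 11.98, 12.03 and 12.03 in controls 1, 2 and 3. The mutants lay on both sides of the controls, with an SD of 0.27 among mutants and 0.026 among controls (n = 3 each). Its log2 change was 0.060 (SE 0.17, 95% interval -0.33 to 0.45, adjusted p of 0.939 by limma), and was -0.049 without mutant 1.

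Nuak2 encodes a kinase related to AMPK that raises myosin activity and, in other tissues, feeds back on YAP. Its log2 signal was 5.15, 5.30 and 5.13 in mutants 1, 2 and 3, against 5.33, 5.18 and 5.31 in controls 1, 2 and 3. All 6 signals were within background and the groups overlapped, with a log2 change of -0.079 (SE 0.14, 95% interval -0.40 to 0.25, adjusted p of 0.892 by limma).

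Rbms3, Gadd45a and Foxf2 act on RNA, on the cell cycle and on transcription. Rbms3, an RNA-binding protein that binds A- and U-rich stretches, had log2 signals of 13.04, 12.64 and 12.57 in mutants 1, 2 and 3, against 12.05, 11.82 and 12.02 in controls 1, 2 and 3. The lowest mutant was 0.53 above the highest control. The mean was 12.75 ± 0.26 in mutants and 11.96 ± 0.12 in controls (SD, n = 3 each), a 1.73-fold difference (95% interval 1.31 to 2.28, log2 change 0.79, SE 0.17). It did not pass over all probe sets (adjusted p of 0.178 by limma), at place 218 by p-value.

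Gadd45a, a stress-induced inhibitor of cell division, had log2 signals of 9.28, 8.00 and 8.91 in mutants 1, 2 and 3, against 8.71, 8.53 and 7.22 in controls 1, 2 and 3. The animals of each group were far apart, mutant 2 lay below controls 1 and 2, and control 3 was within background. Its spread within groups, an SD of 0.74 log2 units over the 2 groups, was larger than that of 99.0% of probe sets. The log2 change of 0.58 (SE 0.44, 95% interval -0.43 to 1.59, adjusted p of 0.718 by limma) was 0.11 without control 3 and 0.94 without mutant 2. Foxf2, a forkhead transcription factor of mesenchyme, had log2 signals of 2.72, 2.41 and 2.85 in mutants 1, 2 and 3, against 2.90, 2.66 and 2.84 in controls 1, 2 and 3. These lay near or below the low end of the background range, the groups overlapped, and the log2 change was -0.14 (SE 0.17, 95% interval -0.53 to 0.25, adjusted p of 0.832 by limma).

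**Figure D2:**
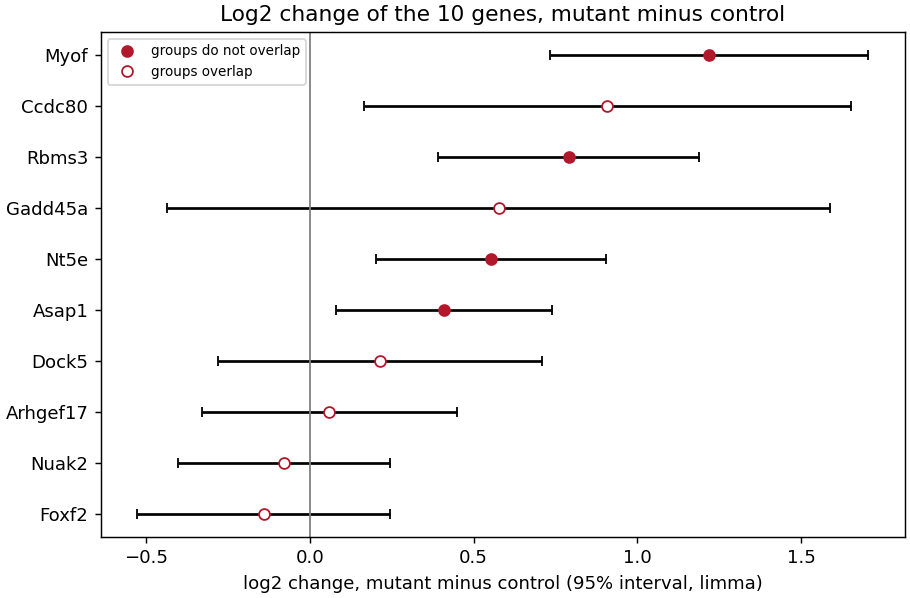
Log2 change, mutant minus control, of the 10 genes with 95% intervals of the limma fit, ordered by size; filled points mark genes whose groups do not overlap. The intervals of Myof, Ccdc80, Rbms3, Nt5e and Asap1 lie above 0, and those of the other 5 genes include 0.

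As a list, 8 of the 10 genes had a positive log2 change, where 48.0% of all probe sets did. After Benjamini-Hochberg adjustment over the 22206 probe sets, 0 of the 10 passed 0.05 in limma's test, against 0.0721% of all probe sets, 12 of which were higher and 4 lower. At an unadjusted p under 0.05, 5 of the 10 were higher and 0 lower, namely Myof, Rbms3, Nt5e, Asap1 and Ccdc80, against 5.42% higher and 4.96% lower over all probe sets. The groups did not overlap for 4 of the 10, all higher in mutants, where 8.00% of all probe sets had every mutant higher and 8.36% every mutant lower. The median log2 change was 0.48 for the 10 genes and -0.011 over all probe sets. With a variance prior that follows the signal level and is robust to outlying genes, Myof (adjusted p of 0.0273 by limma) and Rbms3 (adjusted p of 0.0364 by limma) passed. Without the dimmer probe sets Myof did (adjusted p of 0.0479 by limma). These 2 fits also passed more probe sets in all, 175 of 22206 and 92 of 11103, against 16 of 22206 in the main fit. The count of 5 was 3 without mutant 1, without control 1 or without control 2 (Myof, Nt5e and Rbms3 in each case), where 4.51%, 4.22% and 4.25% of all probe sets were higher at that threshold. Without mutant 2, groups did not overlap for 6 genes higher in mutants and for Nuak2, which was lower, where 12.6% of all probe sets then had every mutant higher and 14.0% every mutant lower.

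Mutant 1 stood highest of the 6 animals for 7 of the 10 genes. The mean of the 10 genes was 8.80, 8.43 and 8.55 in mutants 1, 2 and 3, against 8.13, 8.14 and 8.16 in controls 1, 2 and 3. The groups did not overlap on this mean, and mutant 1 lay apart from the other mutants by more than the controls lay from each other. Without mutant 1 the median log2 change of the 10 genes was 0.33.

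**Figure D3:**
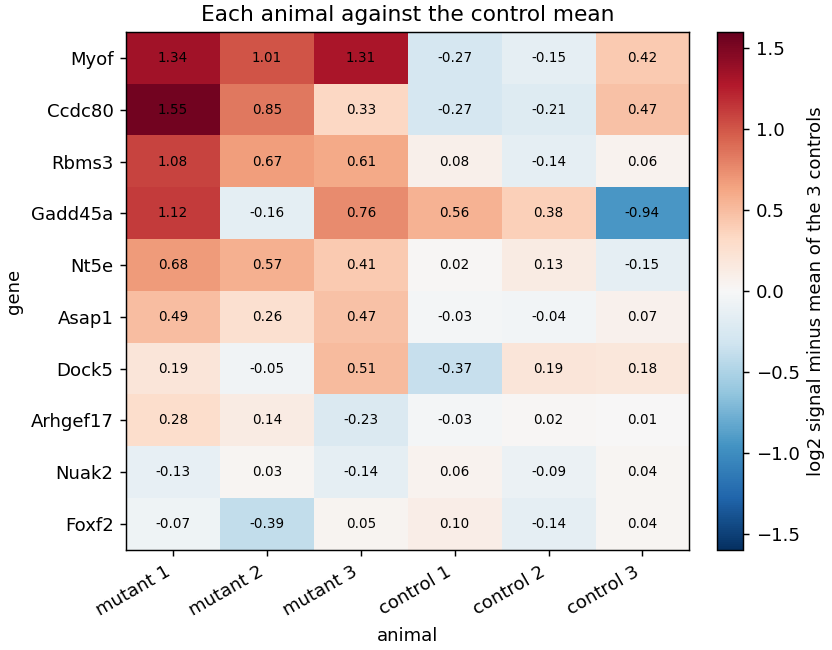
Log2 signal of each gene in each animal minus the mean of the 3 controls, with genes in rows ordered by log2 change and animals in columns, mutants on the left. All 3 mutants are above the control mean in the rows of Myof, Ccdc80, Rbms3, Nt5e and Asap1; in the Gadd45a row mutant 2 is below it and control 3 is lowest.

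The 12 other genes of the signature were examined beside the 10. Of these, Tgfb2, a ligand of the TGF-beta family, rose past the test, 0 fell and 11 did not pass. Its log2 signal was 8.90 ± 0.26 in mutants and 7.47 ± 0.08 in controls (SD, n = 3 each; log2 change 1.44, SE 0.17, adjusted p of 0.0357 by limma). At an unadjusted p under 0.05, 6 of the 12 were higher and 0 lower, and their median log2 change was 0.55, close to the 0.48 of the 10 genes; whether the lists differ was not tested. Crim1, a membrane protein that binds BMP ligands, had a log2 change of 0.87 (SE 0.15, adjusted p of 0.0803 by limma), and Ptpn14, a phosphatase that binds YAP, one of 0.73 (SE 0.22, adjusted p of 0.316 by limma). The readouts Ccn1 and Ccn2 differed by 0.55 (SE 0.26) and 0.19 (SE 0.20) log2 units. The lower genes were Amotl2 (-0.32, SE 0.38), Fjx1 (-0.19, SE 0.21) and Ankrd1 (-0.13, SE 0.22). Of these 5 genes, 0 were past an unadjusted 0.05. All 6 signals of Fjx1 and of Ankrd1 were within background, which limits what their differences can show. For Ccn1 the groups stood 0.05 apart, with mutant 3 at 11.34 and mutants 1 and 2 at 10.40. Groups did not overlap for 7 of the 12 genes, all higher in mutants, where 8.00% of all probe sets had every mutant higher.

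Relatives and partners of the 10 genes were counted in lists. Among the extracellular purine genes around Nt5e, 0 of 9 measured passed over all probe sets, and 3 were higher at an unadjusted p under 0.05. They were Alpl, a phosphatase that also makes adenosine (log2 change 1.15, SE 0.20, adjusted p of 0.0900 by limma, both group means within background), Entpd1, which makes the AMP that CD73 uses (0.41, SE 0.16), and the nucleotide pyrophosphatase Enpp3 (0.43, SE 0.19, all controls and 2 of 3 mutants within background). Of the 4 ferlins beside Myof, Dysf, the repair protein dysferlin, had a log2 change of 0.49 (SE 0.18, adjusted p of 0.405 by limma), and Otof, Fer1l4 and Fer1l5 were within background in both groups.

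Both paralogs of Rbms3 were higher in all mutants than in all controls, where 8.00% of all probe sets had every mutant higher. Rbms2 had a log2 signal of 13.67 ± 0.10 in mutants and 12.97 ± 0.06 in controls (SD, n = 3 each; log2 change 0.69, SE 0.14, adjusted p of 0.142 by limma). Rbms1 had one of 14.47 ± 0.08 in mutants and 14.11 ± 0.19 in controls (SD, n = 3 each; log2 change 0.36, SE 0.16, adjusted p of 0.483 by limma). Neither passed, and how far the probes of the 3 genes share sequence was not examined. Of the 2 sushi-repeat proteins beside Ccdc80, the secreted Srpx2 had a log2 change of 1.47 (SE 0.31, adjusted p of 0.156 by limma, groups apart) and Srpx one of 0.15 (SE 0.17).

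Among 12 DOCK and ELMO genes 0 passed and the median log2 change was 0.019; Elmo3 (-0.45, SE 0.14) and Elmo2 (-0.45, SE 0.18), partners of DOCK proteins in Rac activation, were lower at an unadjusted p under 0.05. Among 8 ARF regulators 0 passed, and Arap1, which acts on ARF proteins and was the 1 gene past an unadjusted 0.05, had a log2 change of 0.70 (SE 0.17, adjusted p of 0.201 by limma). The 16 AMPK-related genes around Nuak2 had a median of -0.12, and 0 were past even an unadjusted 0.05.

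Around Gadd45a, 0 of 15 GADD45 and p53 target genes passed, with a median log2 change of -0.089. Phlda3, a p53-induced inhibitor of AKT, was higher at an unadjusted p under 0.05 (0.79, SE 0.31, both means within background), and the p53 target Ccng1 was lower (-0.35, SE 0.15). Around Foxf2, 0 of 8 forkhead genes passed at either threshold, and 6 of the 8 were within background in both groups. Foxs1, a forkhead gene of pericytes, had the smallest p (0.64, SE 0.39, adjusted p of 0.629 by limma). All of its controls and 1 of 3 mutants were within background.

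**Figure D4:**
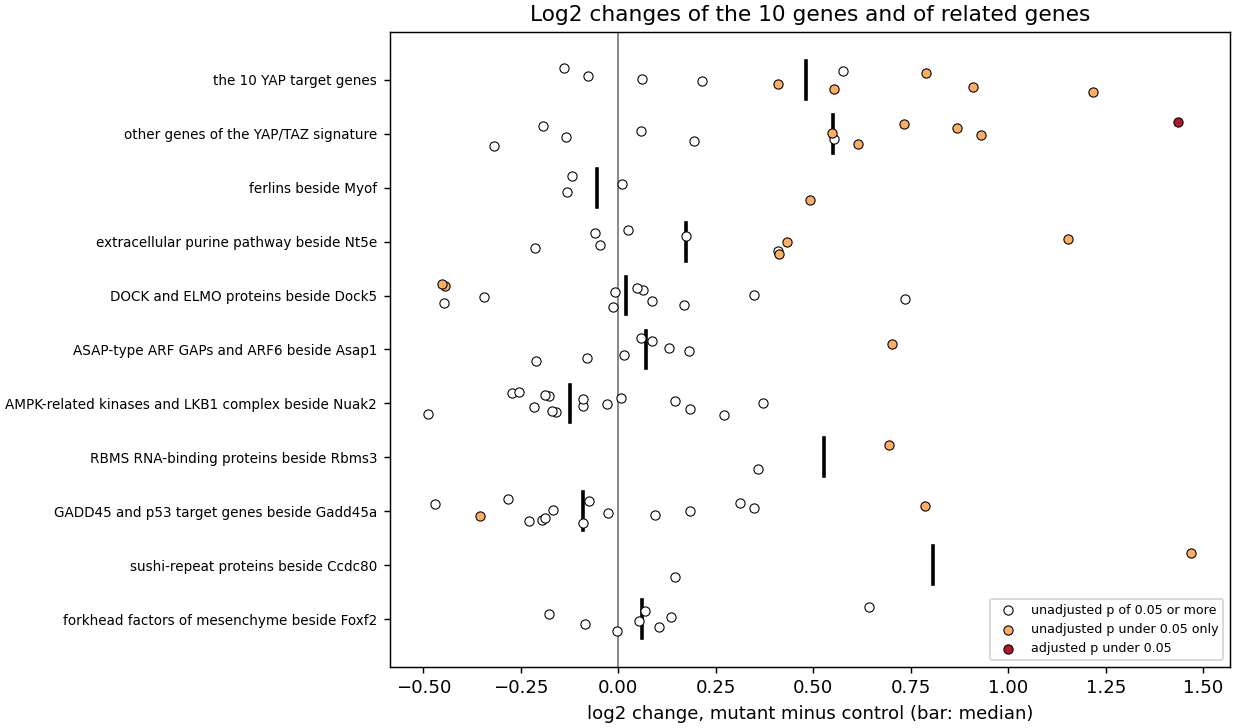
Log2 change, mutant minus control, of the 10 genes and of 10 lists of related genes, 1 point per gene, with the median as a bar. Tgfb2 is the 1 gene past an adjusted p of 0.05, and the medians of the 10 genes (0.48) and of the 12 other signature genes (0.55) lie between those of the AMPK-related list (-0.12), the lowest, and the pair of sushi-repeat genes (0.81), the highest of the lists drawn.

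The genes whose profile over the 6 animals was closest to that of Myof, the member of smallest p, were Heg1, Aqp1, Hspg2, C9orf72 and Hacd4. Closeness was the root-mean-square difference of mean-centred log2 signals among 19571 named probe sets, and it ran from 0.14 for Heg1 to 0.20 for Hacd4. Heg1, a transmembrane receptor of endothelium, had a log2 change of 1.07 (SE 0.16, adjusted p of 0.0621 by limma), and the water channel Aqp1 one of 1.48 (SE 0.23, adjusted p of 0.0667 by limma). The basement membrane proteoglycan gene Hspg2 had a log2 change of 0.98 (SE 0.17, adjusted p of 0.0803 by limma). C9orf72 had one of 0.93 (SE 0.22, adjusted p of 0.204 by limma) and Hacd4 one of 1.14 (SE 0.18, adjusted p of 0.0736 by limma). Because these genes were picked for closeness to Myof over the same 6 animals, log2 changes near that of Myof follow from the choice.

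Endothelial, smooth muscle, capsule, fibroblast, macrophage and adipocyte markers were higher on average in mutant glands, and chromaffin markers were lower. The endothelial list (9 genes, all above background) had means from 11.98 to 12.06 in mutants and from 11.56 to 11.75 in controls, and 8 of 9 genes were higher. The smooth muscle and pericyte list ranged from 8.68 to 9.14 in mutants and from 8.28 to 8.52 in controls, with 7 of 9 genes higher. The 2 lower genes were the defining Myh11 (log2 change -0.069, SE 0.17) and Cnn1 (-0.29, SE 0.16). Both were within background, as were Notch3 and Cspg4. The capsule list of 5 genes ranged from 9.44 to 9.76 in mutants and from 8.86 to 9.34 in controls, with 5 of 5 higher and Gli1 and Wt1 within background. The fibroblast list of 11 genes ranged from 9.39 to 10.2 in mutants and from 9.09 to 9.66 in controls, with 9 of 11 higher and Pi16 and Clec3b within background. The macrophage list of 5 genes ranged from 9.06 to 9.52 in mutants and from 8.87 to 9.00 in controls, with 5 of 5 higher. Both group means of its genes Adgre1 and Cd163 were within background. Adipocyte means ranged from 9.36 to 12.4 in mutants and from 8.22 to 10.99 in controls, highest in mutant 1. Both group means of Lep and the control mean of Ucp1 were within background. Chromaffin means, from 13.03 to 13.13 in mutants and from 13.03 to 14.1 in controls, and cortex means, from 17.55 to 17.71 in mutants and from 17.71 to 17.75 in controls, overlapped between groups, and 7 of 7 chromaffin and 7 of 9 cortex genes were lower in mutants. Of these lists 0 genes passed over all probe sets in limma's test. At an unadjusted p under 0.05 there were 5 higher endothelial, 3 smooth muscle, 3 fibroblast, 2 capsule and 2 macrophage genes and 0 higher adipocyte genes. There was 1 lower chromaffin gene, Phox2a (log2 change -0.59, SE 0.24, both means within background). In this main fit 5.42% of all probe sets were higher and 4.96% lower at that threshold, and 48.0% had a positive log2 change. The part of these cell types in the values of the 10 genes was not tested. With the adipocyte mean as a covariate, 5 of the 10 were higher at an unadjusted p under 0.05. In that fit 4.67% of all probe sets were higher and 3.95% lower at that threshold. The log2 change of Ccdc80 went from 0.91 (SE 0.32) to 0.61 (SE 0.19) and that of Arhgef17 from 0.060 (SE 0.17) to -0.018 (SE 0.17).

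**Figure D5:**
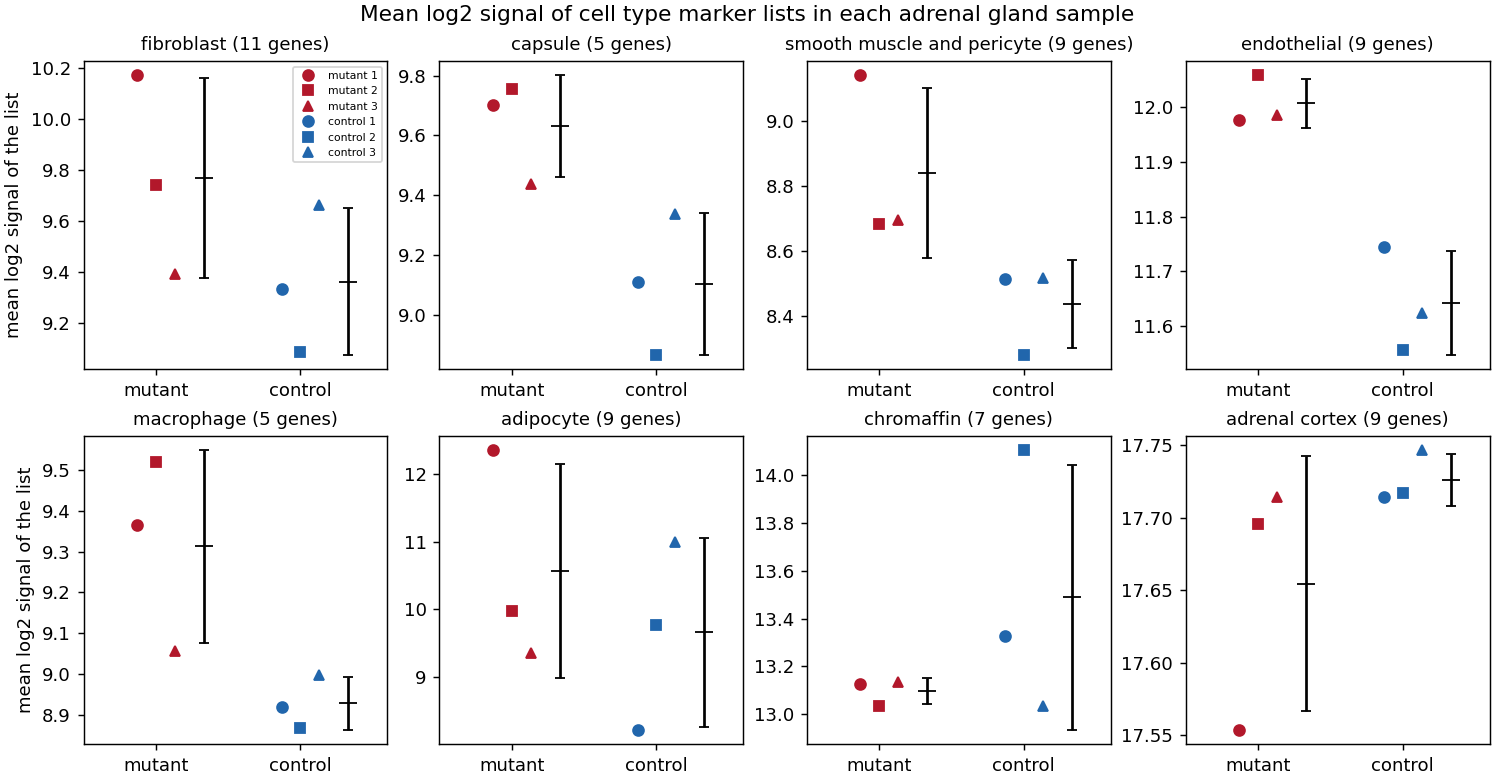
Mean log2 signal of 8 cell type marker lists in each of the 3 mutant (red, left) and 3 control (blue, right) glands, with group mean and SD; each panel has its own scale. Endothelial, smooth muscle, capsule and macrophage means are higher in every mutant than in every control, whereas fibroblast, adipocyte and chromaffin means overlap.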

How the data were processed

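The authors deposited log2 signals, 1 value per probe set and animal; that they are on a log2 scale was inferred from their values. Transcriptome Analysis Console 4.0 is listed in the submitters' processing notes. How background, summarisation and normalization were handled is not stated there. Groups follow the sample descriptions and genotypes, which name separate animals.

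Control probe sets were left out: 5222 with neg (introns in Affymetrix designs) and 1324 with pos (exons) in their identifiers, and 94 spikes or background. Of the 22206 left, the platform annotation gave 1 symbol to 19572, several to 0 and none to 2634. All 19572 matched an Entrez identifier of GRCm38.p6, which changed 0 symbols. No build is named for the arrays, so coordinates are given only for RefSeq promoter windows.

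The difference, mutant minus control, came from limma 3.58.1 (lmFit, eBayes; R 4.3.3) without covariates, with a two-sided test, Benjamini-Hochberg adjustment over 22206 probe sets and a threshold of 0.05. Intervals and SEs use the moderated variance. Precision is limited by 6 arrays. Tested on simulated data built from the means and SDs of the 22206 probe sets, this fit called 41 of 100 changes of 1 log2 unit and 88 of 100 of 2, with 8 false calls.

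The 10 genes and 20 lists were chosen with earlier results of these data known, and 1 of the lists is not reported here. Named were the 10 genes, up to 3 genes of smallest p and any passing gene per related list, and the 5 profiles nearest to the member of smallest p. Marker genes, Otof, Fer1l4, Fer1l5, Ccn1, Ccn2, Amotl2, Fjx1 and Ankrd1 were picked for mention with their values in view. The 16 alternatives covered normalization, filters, variance models, array weights, replicate block, each animal left out and 2 covariates. Promoter motifs were matched with Python 3.11.15.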

Additional observations from a re-analysis of the deposited data

How the results depend on the processing

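Of 10 genes, 9 kept their direction under all alternatives in which they were tested. Arhgef17 had a log2 change of -0.018 with the adipocyte covariate, and its range with each animal left out was -0.049 to 0.21. Myof ranged from 1.08 to 1.43 over the alternatives (adjusted p from 0.0273 to 0.319 by limma) and Rbms3 from 0.64 to 0.88 (adjusted p from 0.0364 to 0.458 by limma). The count of the 10 past an adjusted p of 0.05 was 2 with trend and robust and 1 without dim probe sets, which leaves out Nt5e, Nuak2 and Foxf2, and 0 otherwise. With each animal left out, from 3 to 5 of the 10 were past an unadjusted 0.05, all higher, where from 4.22% to 5.63% of all probe sets were higher at that threshold. From 4 to 7 had groups that did not overlap, among them Nuak2 as a lower gene without mutant 2 and without control 2. Over the fits with each animal left out, from 12.1% to 13.8% of all probe sets had every mutant higher. From 11.9% to 16.4% had every mutant lower. The median log2 change of the 10 genes ran from 0.33 to 0.51 in these fits. The count over all probe sets, 16, was 38 with quantile normalization, 32 with arrays shifted to a common median, 92 without dim probe sets, 41 with only named probe sets, 175 with trend and robust, 48 with array weights, 8 with the intron covariate and 2 with the adipocyte covariate, and from 1 to 15 with each animal left out. The shift to a common median turned the split of 12 higher and 4 lower into 20 and 12. With the replicate number as a block the count over all probe sets past an adjusted 0.05 was 1. In that fit 5 of the 10 genes were higher at an unadjusted p under 0.05, where 5% of all probe sets were higher and 4.26% lower. Same-numbered animals had deviations correlating at -0.090, 0.082 and -0.070, so the numbers were not taken to pair them. Overlap of groups was not counted for fits that leave the signals as they are. The causes of these shifts were not tested. Signals within background limit what Nt5e, Nuak2 and Foxf2 can show.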
